A study of Sus scrofa with 6 samples.

Results

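The MYC network is a set of transcription factors that share a basic helix-loop-helix leucine zipper and meet on the same DNA sites. Its genes were followed from porcine embryonic fibroblasts (PEFs) to the induced pluripotent stem cells (piPSCs) made from them. The 10 genes are MYC, MYCN, MYCL, MAX, MXD1, MXD3, MXD4, MXI1, MNT and MGA, and they were taken by symbol from the 18007 genes of the RNA-seq table. All 10 had a row, and 9 had a mean of at least 0.5 FPKM (fragments scaled to the counted length of the gene and to the depth of the library) over the 6 libraries, which was needed for a test.

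MYC, MYCN and MYCL pair with MAX, bind E-boxes (CACGTG) and recruit coactivators, and they are known for driving ribosome production, metabolism and cell division. MXD1, MXI1, MXD3, MXD4 and MNT pair with the same MAX and recruit the SIN3 corepressor complex to E-boxes, so the balance of both kinds of partner is a textbook control of growth. MGA also pairs with MAX and brings it into a variant Polycomb complex, PRC1.6, which holds germ-cell genes silent in embryonic stem cells. MYC is one of the 4 factors of the classical reprogramming mixture, beside OCT4 (the gene POU5F1), SOX2 and KLF4.

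PEF5, PEF7 and PEF8 are fibroblast lines from ear tips of embryos at embryonic day 90, from a Large White boar (Longwhite in the labels) and a Meishan sow. piPSC5, piPSC7 and piPSC8 came from the same-numbered PEF lines by infection with a lentiviral vector that carries the 4 factors under a doxycycline-inducible promoter (TetO-FUW-OSKM) and a second one for the transactivator (FUW-M2rtTA). Infected cells were kept in LF2i medium until colonies appeared, which were picked onto mouse embryonic fibroblast feeders. Each line gave 1 library, so the 3 lines are the replicates, and the p-values measure the spread between lines of the same parents. The piPSCs therefore hold a MYC cDNA of the vector, whose species is not given in the sources used here. Fragments from that cDNA, or from mouse feeders, cannot be separated from porcine MYC in this table.

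The libraries held 11010629 to 17836510 fragments. DDX3Y, a gene of the Y chromosome, had 3439 fragments in PEF8 and 4207 in piPSC8, and 0 in the libraries of lines 5 and 7, although the study describes all lines as male. Of 12 fibroblast markers 11 were called lower in piPSCs by the rule described below, against 16.7% of all tested genes. All 12 had a negative log2 difference, and their summed level was 4709 to 6636 FPKM in PEFs and 132 to 230 FPKM in piPSCs. Of 10 pluripotency markers 7 had a row, and 4 of these, POU5F1, NANOG, SALL4 and ESRRB, were under 1 FPKM in every piPSC library. Of the other 3, LIN28B was at 0.0104, 0.0111 and 0.0367 FPKM in PEF5, PEF7 and PEF8 and at 2.51, 0.281 and 8.90 FPKM in the same-numbered piPSCs, a log2 difference of 1.80 that missed the threshold (limma adjusted p = 0.0667), and SOX2 and KLF4 are given below. The summed level of 18 measured proliferation genes was 339, 70.7 and 109 FPKM in PEF5, PEF7 and PEF8, and 782 to 815 FPKM in piPSCs. All 18 had a positive log2 difference, and 17 were called higher by the same rule, against 20.2% of all tested genes. Of the epithelial markers 7 of 8 with a row were under 1 FPKM in every piPSC library, as were 5 of 5 endothelial, 3 of 5 keratinocyte and 2 of 3 blood cell markers. Summed epithelial and blood cell markers were at 11.7 to 37.4 and 10.8 to 23.0 FPKM in PEFs, and at 0.789 to 9.62 and 1.05 to 2.96 FPKM in piPSCs. Summed endothelial and keratinocyte markers were at 0.642 to 2.69 and 3.04 to 3.35 FPKM in PEFs, and at 0.0316 to 1.17 and 4.74 to 9.12 FPKM in piPSCs.

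E-boxes stood near the start of 3 of the 10 genes. Promoters were read as the 250 bases before and the 50 bases from each gene's start in the RefSeq annotation of Sscrofa11.1, and CACGTG, which reads the same on both strands, was in 7.92% of 19556 promoters. MAX and MXD4 are among these 3 genes, none of which was called by the rule described below. Both stretches are shown because they hold the match, in capitals, and are written 5′ to 3′ on the gene's strand:
MAX, chr7:89168456-89168515, minus strand: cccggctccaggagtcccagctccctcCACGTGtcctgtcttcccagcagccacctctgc
MXD4, chr8:1216987-1217046, minus strand: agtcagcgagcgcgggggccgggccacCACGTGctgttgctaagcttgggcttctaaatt

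An E2F-type motif, GCGGGAA on either strand, was in 7.03% of the 19556 promoters and in 2 of those of the 10 genes, MXD3 among them. E2F factors bind such sites in genes of the cell cycle. The motif does not overlap CACGTG, and in MXD3 it lies on the opposite strand, as TTCCCGC. The stretch is shown because MXD3 is one of the genes that rose:
MXD3, chr2:80636718-80636777, plus strand: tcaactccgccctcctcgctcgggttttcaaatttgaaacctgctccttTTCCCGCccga
The other called genes, MYC, MYCL, MXI1 and MGA, had neither motif in this window. The RefSeq start of MXI1 lies inside the longer gene model of the table, so its window may not be the start in use in these cells.

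Among the MAX partners that activate genes, MYC and MYCL were lower in piPSCs, and among those that repress, MXI1, MGA and MXD3 were higher. Of the other repressors, none of them called, MXD1 and MXD4 had negative log2 differences (-0.93 and -0.47) and MNT a positive one (0.40). A gene was called when limma's adjusted p was under 0.05 and the difference on the log2(FPKM + 1) scale was at least 2-fold. By this rule 5 of the 9 tested genes were called, against 36.8% of all 12428 tested genes, and 3 were higher and 2 lower, against 20.2% and 16.7% of all tested genes. The PEF and piPSC libraries did not overlap for 6 of the 9 genes, against 64.1% of all tested genes. Of these 6, MXI1, MGA and MXD3 lay higher in piPSCs, against 37.3% of all tested genes, and MYC, MYCL and MXD1 lower, against 26.8%. With 9 genes, both counts are close to what the background shares would give. At least a 2-fold ratio of FPKM + 1 in the same direction in all 3 lines was seen for 4 of the 10 genes, against 17% of all 18007 genes. MXI1 and MGA were higher in every line, against 8.82% of all genes, and MYC and MYCL lower in every line, against 8.21%. These 18007 genes include those too low for a test, which cannot reach such a ratio in all 3 lines. All 3067 genes that did, 1588 higher and 1479 lower, are thus among the 12428 tested, where their shares are larger.

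**Figure D1:**
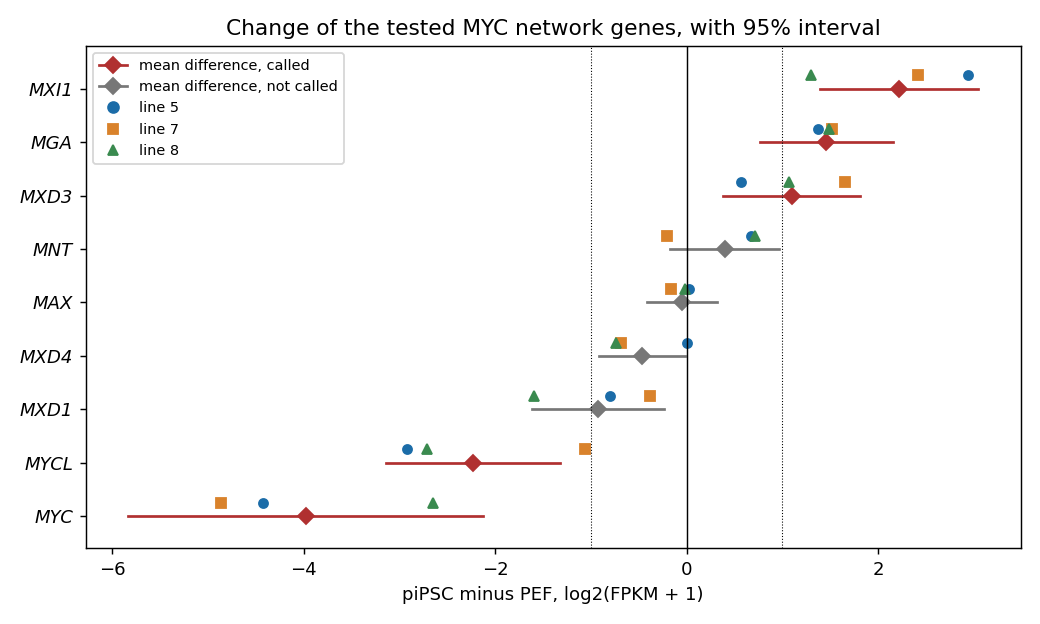
Difference between piPSCs and PEFs on the log2(FPKM + 1) scale for the 9 tested genes. Diamonds with bars are the mean difference over 3 lines with its 95% interval from limma, small symbols are the ratio within each line, and dotted lines mark 2-fold. MXI1, MGA and MXD3 lie at or above 1.10, MYCL and MYC at or below -2.23, and MNT, MAX, MXD4 and MXD1 between them.

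The scale of the table touches these counts. On the values as deposited, all tested genes had a median log2 difference of 0.20. It was -0.01 when libraries were rescaled by the median of the gene ratios (the median ratio) and -0.06 when they were rescaled to the same summed FPKM (the equal sum). Higher calls over all genes were 2505 and lower calls 2070 as deposited, 1869 and 2517 at the median ratio, and 1986 and 2815 at the equal sum. Under both rescalings 2 of the 10 genes were called higher and 3 lower, since MXD3 then missed 2-fold and MXD1 passed it. MXD1 was also called with a pseudocount of 0.1, with voom and without piPSC7. In bulk RNA, fewer cells that express a gene and less RNA per cell cannot be told apart.

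MYC (ENSSSCG00000005965, chr4:12455656-12459769, minus strand), the founding member of the family, showed the largest fall of the 9. It stood at 50.9 FPKM in PEF5, 58.9 FPKM in PEF7 and 6.95 FPKM in PEF8, and at 1.42 in piPSC5, 1.05 in piPSC7 and 0.267 in piPSC8. These values rest on 1233, 1337 and 143 fragments in PEFs and on 29, 17 and 4 in piPSCs. All PEF libraries were above all piPSC libraries, and the lowest PEF was 4.90 times the highest piPSC. The mean was 38.9 ± 28.0 FPKM (SD, n = 3) in PEFs and 0.912 ± 0.588 in piPSCs, which is 42.6-fold lower. On the log2(FPKM + 1) scale MYC fell by 3.98 (SE 0.78, 95% interval -5.84 to -2.12, limma adjusted p = 0.00634).

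The PEF lines were unlike each other in MYC. In FPKM, the mean of PEF5 and PEF7 was 7.90 times PEF8, while PEF8 was still 26.0 times piPSC8. The log2 ratios of FPKM + 1 within lines 5, 7 and 8 were -4.42, -4.87 and -2.65. The line with the lowest starting level thus had the smallest ratio. The pseudocount of 1 holds back these ratios, most of all in line 8, where piPSC8 was at 0.267 FPKM. Line 8 was also the line with DDX3Y fragments, whose part in the MYC level was not tested. With limma voom on the recovered fragments, the difference was -5.16 and its adjusted p 0.0663. With 1 library left out at a time, the difference lay between -4.92 and -3.46 and MYC remained called.

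The counted length of MYC in the table was 1359 bases, against 1356 coding bases and 2462 transcript bases in RefSeq. The value is thus one of the coding part, the part that a MYC cDNA holds, and it rests on 29 fragments or fewer in each piPSC library. The share of the vector in these fragments was not tested.

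The rows of the genes for the other factors of the vector showed no common direction. The share of the vector in their fragments was not tested. KLF4, a zinc finger factor of fibroblasts and stem cells, was at 17.4, 41.6 and 34.2 FPKM in PEF5, PEF7 and PEF8 and at 4.45, 9.40 and 12.9 FPKM in the piPSCs of the same lines. It fell by 1.71 on the log2 scale (limma adjusted p = 0.0177), a call that was lost without PEF7 or without PEF8. SOX2, a factor of early embryonic and neural cells, was at 0, 0.00941 and 0.0208 FPKM in PEFs and at 3.01, 2.49 and 0.129 FPKM in piPSCs, a log2 difference of 1.31 that missed the threshold (limma adjusted p = 0.0626) and passed it with a pseudocount of 0.1, with quantile normalization, with voom and without piPSC8. POU5F1, the OCT4 gene, was at 0 in every PEF library and at 0, 0.155 and 0.0839 FPKM in piPSC5, piPSC7 and piPSC8, and was too low to be tested. These piPSC values rest on 0, 2 and 1 fragments. The study reports Oct4 protein in its piPSCs by immunofluorescence and describes endogenous Oct4 mRNA as low.

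MYCL (ENSSSCG00000039761, chr6:95696089-95702648, minus strand), a shorter relative of MYC that can replace it in reprogramming mixtures, fell as well. It stood at 7.37 FPKM in PEF5, 2.75 FPKM in PEF7 and 5.72 FPKM in PEF8, and at 0.102, 0.798 and 0.0278 FPKM in piPSC5, piPSC7 and piPSC8. Fragments fell from 429, 150 and 283 to 5, 31 and 1. The groups did not overlap, and line 7 had both the lowest PEF and the highest piPSC value. The mean was 5.28 ± 2.34 FPKM in PEFs and 0.309 ± 0.425 in piPSCs, which is 17.1-fold lower, and the log2 difference was -2.23 (SE 0.38, 95% interval -3.15 to -1.32, limma adjusted p = 0.00392). A pseudocount of 1 holds back the ratio of a gene this low: with 0.1 the log2 difference was -4.13, and with voom -4.97.

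MYCN (ENSSSCG00000008618, chr3:121542275-121549491, minus strand), the family member of neural and embryonic tissue, was close to silent. It had 5, 0 and 6 fragments in PEF5, PEF7 and PEF8 (0.0723, 0 and 0.102 FPKM) and 0 in each piPSC library. A count of 0 allows up to 3 fragments per library, for counting error only. MYCN was therefore not detectable in piPSCs at this depth, and no fold is given.

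**Figure D2:**
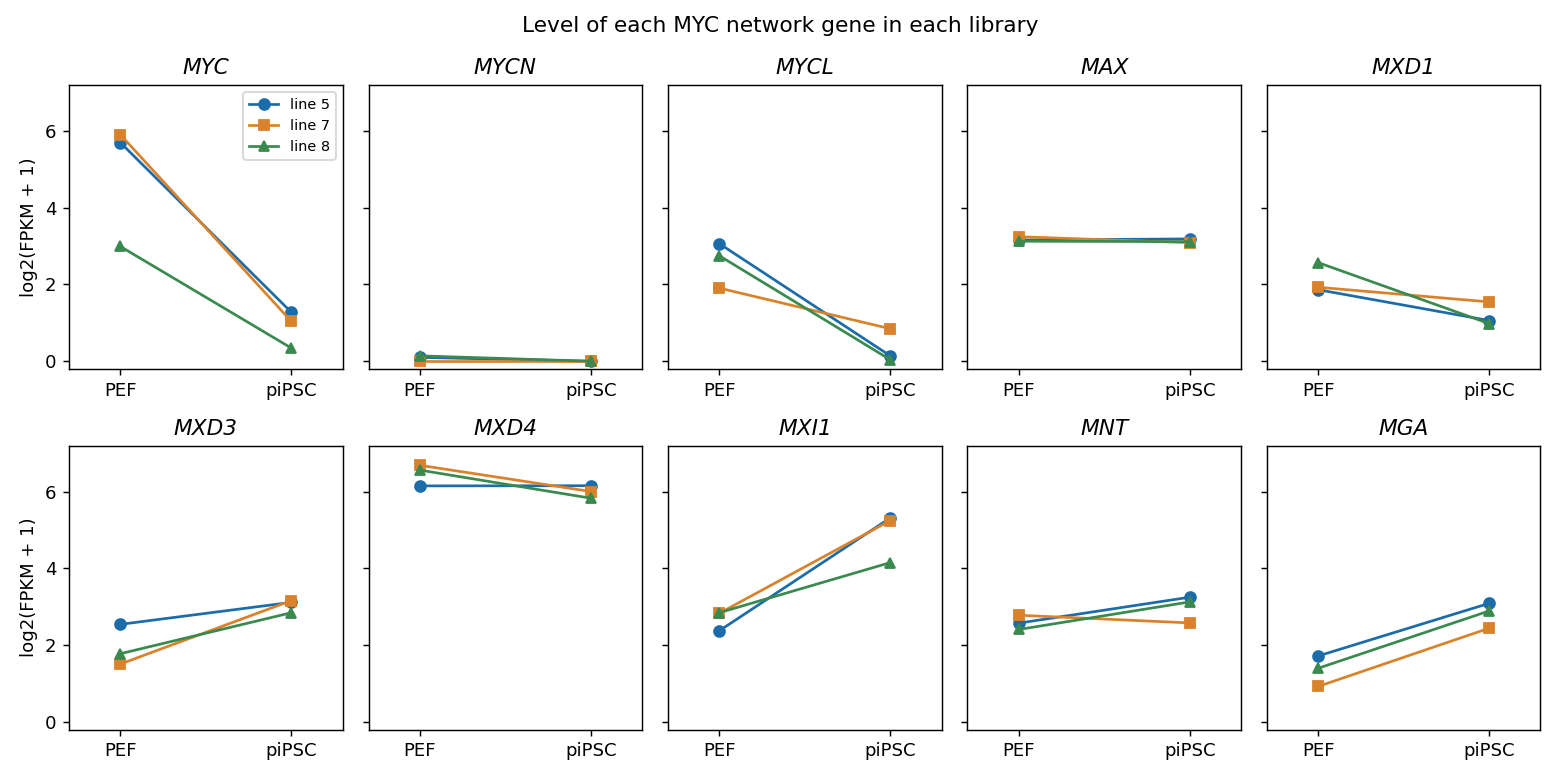
Level of each of the 10 genes in each library, as log2(FPKM + 1), with PEF on the left and piPSC on the right of each panel and a line joining the libraries of the same cell line. MYC and MYCL go down and MXI1, MGA and MXD3 go up in all 3 lines, MAX is nearly flat, and MYCN stays near 0.

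MAX (ENSSSCG00000037267, chr7:89136985-89168200, minus strand), the partner shared by all the others, was the steadiest gene of the set. It stood at 7.93, 8.49 and 7.74 FPKM in PEF5, PEF7 and PEF8 and at 8.11, 7.50 and 7.67 FPKM in piPSC5, piPSC7 and piPSC8. The groups overlapped, with means of 8.05 ± 0.388 and 7.76 ± 0.315 FPKM. The log2 difference was -0.05 (SE 0.15, 95% interval -0.41 to 0.32, limma adjusted p = 0.810). It was -0.29 and -0.36 after the rescalings to the median ratio and to an equal sum, and missed the threshold in each. A difference of more than 0.41 on this scale in either direction lies outside the interval. The table counted MAX over 7847 bases, against 2161 in the longest RefSeq transcript, so its level against other genes depends on the gene model.

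MXI1 (ENSSSCG00000022128, chr14:120603191-120722627, plus strand), an MXD-type repressor also known as MXD2, showed the largest rise of the 9. It stood at 4.20, 6.12 and 6.20 FPKM in PEF5, PEF7 and PEF8 and at 38.9, 37.1 and 16.8 FPKM in piPSC5, piPSC7 and piPSC8, from 286 to 391 fragments in PEFs and 707 to 2237 in piPSCs. Every piPSC library was above every PEF library, and piPSC8 was the lowest of the piPSCs. The mean was 5.51 ± 1.14 FPKM in PEFs and 30.9 ± 12.3 in piPSCs, 5.61-fold higher, with a log2 difference of 2.22 (SE 0.34, 95% interval 1.40 to 3.05, limma adjusted p = 0.00276). Among the tested genes, its percentile moved from 45.4 in PEFs to 85.7 in piPSCs.

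Part of the MXI1 transcript has relatives elsewhere in the genome. Of its 4078 bases, a part aligned to chr7:88641998-88646255 over 2281 positions, gaps included, at 88.2% identity. Another alignment, to chr7:60767726-60768765, ran over 865 such positions at 82.2%. The table row at the first of these, ENSSSCG00000032647, held at most 3 fragments in any library. How fragments that match several places were counted is not given in the sources used here.

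MXD3 (ENSSSCG00000014041, chr2:80636983-80641950, plus strand), the MXD member known from dividing cells, was higher in piPSCs by a smaller and less stable margin. It stood at 4.83, 1.85 and 2.43 FPKM in PEF5, PEF7 and PEF8 and at 7.68, 7.96 and 6.20 FPKM in the piPSCs of lines 5, 7 and 8. The groups did not overlap. The mean was 3.04 ± 1.58 FPKM in PEFs and 7.28 ± 0.946 in piPSCs, 2.40-fold higher, with a log2 difference of 1.10 (SE 0.30, 95% interval 0.38 to 1.82, limma adjusted p = 0.0218). Ratios within lines were 0.57, 1.65 and 1.07 on the log2 scale, so line 5 was under 2-fold. The call was lost without PEF7, PEF8, piPSC5 or piPSC7, with adjusted p-values of 0.0652, 0.0648, 0.0688 and 0.0579.

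PEF5, which had the highest MXD3 level of the PEFs, also had the highest summed level of proliferation genes of the PEFs, and the piPSCs were above all PEFs in both. The part of cell division in the MXD3 difference was not tested. MXD3 also overlaps PRELID1 on the other strand by 95 bases. PRELID1, a gene of mitochondrial lipid transport, had 2217 to 3395 fragments in PEFs and 4337 to 4676 in piPSCs, against 62 to 173 and 137 to 232 of MXD3. The kit does not mark strand by the labels, and the counting rule for overlaps is not given in the sources used here, so a share of the MXD3 fragments from PRELID1 was not tested.

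MXD1 (ENSSSCG00000008334, chr3:72517837-72545288, minus strand), the first described MXD repressor and a gene of maturing cells, went the other way. It stood at 2.64, 2.81 and 4.94 FPKM in PEF5, PEF7 and PEF8 and at 1.09, 1.92 and 0.973 FPKM in piPSC5, piPSC7 and piPSC8. The groups did not overlap, with means of 3.46 ± 1.28 and 1.33 ± 0.517 FPKM. The log2 difference of -0.93 (SE 0.29, 95% interval -1.61 to -0.24) passed the p-value threshold (limma adjusted p = 0.0342) but not the 2-fold one, so MXD1 was not called. With the line as a replicate block, its adjusted p was 0.0671.

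MXD4 (ENSSSCG00000008687, chr8:1206136-1216644, minus strand), another SIN3-recruiting repressor, had the highest level per counted length of the 10 genes in both groups. It stood at 70.1, 102 and 93.6 FPKM in PEF5, PEF7 and PEF8 and at 70.3, 63.3 and 55.9 FPKM in piPSC5, piPSC7 and piPSC8. The groups overlapped through PEF5 and piPSC5, whose ratio was 0.00 on the log2 scale, while lines 7 and 8 had -0.68 and -0.73. The means were 88.6 ± 16.6 and 63.2 ± 7.21 FPKM, and the log2 difference of -0.47 (SE 0.19, 95% interval -0.92 to -0.02) missed the threshold (limma adjusted p = 0.0746). It passed the p-value threshold, still under 2-fold, at the median ratio (-0.74, limma adjusted p = 0.0220), at the equal sum (-0.80, limma adjusted p = 0.0135) and without PEF5 (-0.63, limma adjusted p = 0.0330). The table counted MXD4 over its 630 coding bases, which is 16.7% of the longest RefSeq transcript.

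MNT (ENSSSCG00000037159, chr12:48469239-48486728, minus strand), the repressor found in most cell types, did not pass the test. It stood at 4.96, 5.88 and 4.32 FPKM in PEF5, PEF7 and PEF8 and at 8.53, 4.99 and 7.75 FPKM in piPSC5, piPSC7 and piPSC8. The groups overlapped, since piPSC7 was below PEF7. The means were 5.05 ± 0.786 and 7.09 ± 1.86 FPKM, and the log2 difference was 0.40 (SE 0.24, 95% interval -0.17 to 0.97, limma adjusted p = 0.201).

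MGA (ENSSSCG00000004739, chr1:129594990-129697417, minus strand), the very large factor that joins MAX to PRC1.6, rose in every line. It stood at 2.29, 0.900 and 1.64 FPKM in PEF5, PEF7 and PEF8 and at 7.53, 4.44 and 6.43 FPKM in piPSC5, piPSC7 and piPSC8. The order of the lines, 5 over 8 over 7, was the same in PEFs and piPSCs, and the groups did not overlap. The mean was 1.61 ± 0.698 FPKM in PEFs and 6.13 ± 1.57 in piPSCs, 3.81-fold higher, with a log2 difference of 1.46 (SE 0.29, 95% interval 0.77 to 2.16, limma adjusted p = 0.00678). The log2 ratios of FPKM + 1 within lines 5, 7 and 8 were 1.37, 1.52 and 1.49. The pseudocount of 1 holds back such ratios most where levels are low, as in PEF7. MGA overlaps ENSSSCG00000033197 on the other strand by 186 bases, and that gene had at most 2 fragments in any library.

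The order of the levels per counted length changed between the groups. In PEFs MXD4 came first with 88.6 FPKM and MYC next with 38.9, followed by MAX at 8.05, MXI1 at 5.51, MYCL at 5.28, MNT at 5.05, MXD1 at 3.46, MXD3 at 3.04 and MGA at 1.61. From MXI1 to MGA the ranges of neighbours overlapped, and the range of MYC reached below MAX through PEF8. In piPSCs the order was MXD4 at 63.2 FPKM, MXI1 at 30.9, MAX at 7.76, MXD3 at 7.28, MNT at 7.09, MGA at 6.13, MXD1 at 1.33, MYC at 0.912 and MYCL at 0.309. From MAX to MGA the ranges of neighbours overlapped, as did those from MXD1 to MYCL, while MXD4, MXI1 and MAX were apart, as were MGA and MXD1. The percentile of MYC among the tested genes was 88.5 in PEFs and 12.4 in piPSCs.

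Summed per library, the MAX partners that activate were lower in piPSCs, while the sums of those that repress overlapped between the groups. MYC, MYCN and MYCL together came to 58.3, 61.6 and 12.8 FPKM in PEF5, PEF7 and PEF8 and to 1.52, 1.85 and 0.295 FPKM in piPSC5, piPSC7 and piPSC8. MXD1, MXD3, MXD4, MXI1 and MNT together came to 86.8, 119 and 111 FPKM in PEFs and to 127, 115 and 87.7 FPKM in piPSCs, and the groups overlapped. The log2 ratio of the former sum over the latter was -0.57, -0.95 and -3.13 in PEFs and -6.38, -5.96 and -8.21 in piPSCs. Its mean was -1.55 in PEFs and -6.85 in piPSCs, and these groups did not overlap. Without MXD4, whose counted length is only its coding part, the mean was 1.07 ± 1.35 and -5.59 ± 1.02. These ratios are of RNA levels per counted length, not of protein, and the share of the vector in the MYC fragments was not tested.

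**Figure D3:**
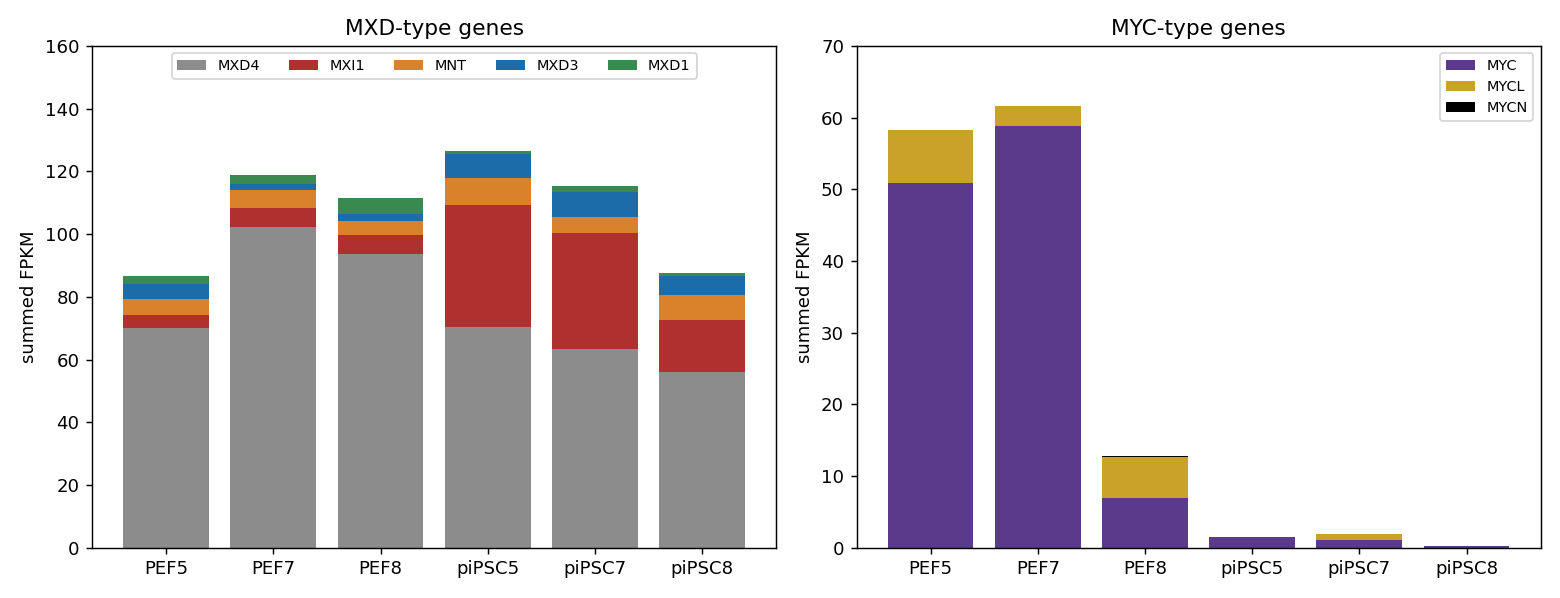
Summed FPKM of the MXD-type genes (left) and of the MYC-type genes (right) in each of the 6 libraries, as bars stacked by gene, with different scales on both axes. The left bars lie between 86.8 and 127 FPKM in both groups with a larger MXI1 part in piPSCs, and the right bars fall from 12.8 to 61.6 FPKM in PEFs to at most 1.85 FPKM in piPSCs.

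The makeup of the repressor sum differed while its size did not separate the groups. MXD4 held 83.6 ± 2.60% of it in PEFs and 58.1 ± 4.95% in piPSCs, and MXI1 held 5.18 ± 0.365% and 27.4 ± 7.13% (SD, n = 3). The share of MYC in the sum of MYC, MYCN and MYCL varied widely between lines, at 87.2%, 95.5% and 54.4% in PEF5, PEF7 and PEF8 and 93.3%, 56.9% and 90.6% in piPSC5, piPSC7 and piPSC8. The groups overlapped, the difference was not tested, and the piPSC shares rest on the few fragments given above.

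Genes with patterns close to those of MYC, MYCL and MAX were looked for among 11416 tested genes with a symbol, by the root mean square difference of log2(FPKM + 1) over the 6 libraries after centring. Nearest to MYC were RND1, CLU and C8orf4, with differences of 0.341, 0.352 and 0.396. Nearest to MYCL were FOSL1, NFKB2 and GPAT3, with 0.147, 0.196 and 0.198. Nearest to MAX were TRIM11, KBTBD4 and TRIR, with 0.0410, 0.0520 and 0.0604. RND1 shows the likeness, with 21.1, 31.4 and 5.30 FPKM in PEF5, PEF7 and PEF8 and 0.501, 0.453 and 0.0815 FPKM in piPSC5, piPSC7 and piPSC8. MYCN was too low to be compared.

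MYC-type factors act through coactivators, of which 0 of 18 tested were called lower and 6 were called higher in piPSCs, against 16.7% and 20.2% of all tested genes. The largest rises were those of RUVBL1, an ATPase of chromatin remodelers (1.93), KAT2A, the GCN5 acetyltransferase (1.68), and PRMT5, an arginine methyltransferase (1.65), each with a limma adjusted p of 0.000944 or less. RUVBL1 went from 14.8 ± 3.81 to 58.0 ± 1.94 FPKM, KAT2A from 8.57 ± 1.73 to 29.5 ± 3.25 FPKM and PRMT5 from 17.7 ± 3.37 to 57.5 ± 7.70 FPKM. The median of the list was 0.85 on the log2 scale, against 0.20 over all tested genes. The corepressors used by MXD factors and MNT had 2 of 14 called higher, below the background of 20.2%, and 0 lower. These were HDAC2, a histone deacetylase (1.85, limma adjusted p = 0.000517), and RBBP7, a histone-binding subunit (1.28, limma adjusted p = 0.00317), and the median was 0.48.

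The partners of MGA in PRC1.6 included 4 of 9 called higher and 0 lower, against 20.2% and 16.7% of all tested genes, with a median of 0.76. Under both rescalings 3 were called higher, with medians of 0.51 at the median ratio and 0.50 at the equal sum. PCGF6, the Polycomb ring finger subunit that defines this complex, rose by 1.90 (limma adjusted p = 0.000957). TFDP1, the partner of E2F6, rose by 1.66 (limma adjusted p = 0.00105), and RNF2, a ubiquitin ligase of the complex, by 1.52 (limma adjusted p = 0.000832). CBX3, a heterochromatin protein named here after its value was seen, rose by 1.23 (limma adjusted p = 0.00277). E2F6, L3MBTL2, RING1, RYBP and YAF2 were not called.

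Genes that set the stability of the MYC protein had 8 of 17 tested called higher and 0 lower, against the same 20.2% and 16.7%, with a median of 0.99. At the median ratio 7 were called higher and at the equal sum 8, with a median of 0.73 in each. PLK1, a mitotic kinase, rose by 3.60, SKP2, a ubiquitin ligase subunit, by 2.86, and CIP2A, an inhibitor of a MYC phosphatase, by 2.53, with limma adjusted p-values of 0.00129, 0.000266 and 0.00220. FBXW7, the ligase subunit best known for marking MYC for breakdown and named here after its value was seen, rose by 1.43 (limma adjusted p = 0.00367). Members of the list with opposite actions on MYC thus rose together. PLK1 also stands in the list of proliferation genes, and without it 7 of 16 were called higher. The part of cell division in the rises of those other genes was not tested.

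Most genes reported as activated by MYC were higher in piPSCs, where the level counted for MYC was lower. Whether that level includes RNA from the MYC cDNA of the vector was not tested. Of 37 tested genes reported as activated by MYC, 25 were called higher and 1 lower in piPSCs, against 20.2% and 16.7% of all tested genes, with a median of 1.78. After the rescalings 23 were called higher and 1 lower, with medians of 1.51 and 1.48. PPAT, of purine synthesis, rose by 3.29, FBL, the fibrillarin of nucleoli, by 3.29, and HSPD1, a mitochondrial chaperone, by 2.77, with limma adjusted p-values of 0.000390, 0.000196 and 0.000176. PPAT went from 0.962, 0.534 and 1.74 FPKM in PEF5, PEF7 and PEF8 to 20.9, 15.1 and 20.8 FPKM in piPSC5, piPSC7 and piPSC8. LDHA, lactate dehydrogenase A, was the 1 that fell, by 1.95 (limma adjusted p = 0.00111). How reads shared with near copies of such genes were counted is not given in the sources used here.

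Of 10 genes reported as repressed by MYC, 6 were called lower and 0 higher, against 16.7% and 20.2% of all tested genes, with a median of -2.04. THBS1, a matrix protein, NDRG1, a stress-response gene, and GAS1, a growth-arrest gene, had log2 differences of -6.98, -4.82 and -3.80, with limma adjusted p-values of 0.000101, 0.000266 and 0.0148. CLU, which stood nearest but one to MYC in pattern, is also a gene of this list. Both target lists were compiled from general knowledge of other cells. The summed proliferation genes rose and the summed fibroblast markers fell with the same groups, by the values given above, and their part in the lists of targets was not tested.

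**Figure D4:**
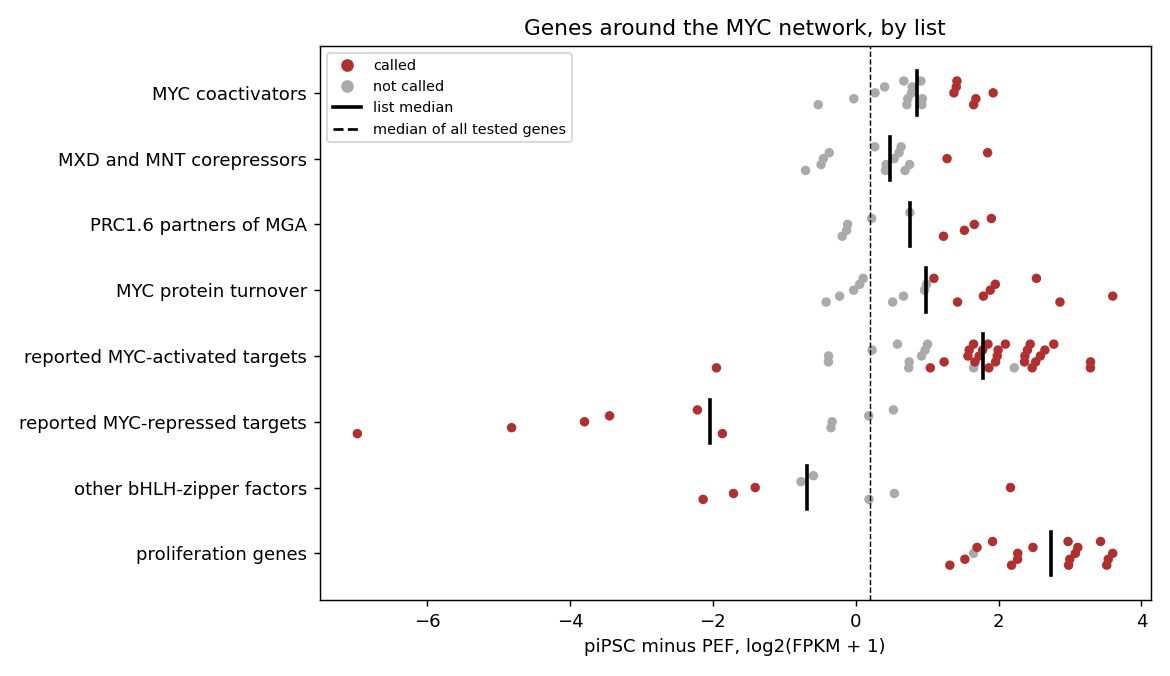
Difference between piPSCs and PEFs on the log2(FPKM + 1) scale for the tested genes of 8 lists around the MYC network, with 1 point per gene, red where called. Bars mark list medians and the dashed line the median of all tested genes, 0.20. The medians run from -2.04 for genes reported as repressed by MYC to 1.78 for those reported as activated and 2.73 for proliferation genes.

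The parallel branch of the network, MLX and its Mondo partners, which respond to glucose, had no called gene. MLX showed a log2 difference of 0.68 that passed the p-value threshold but not 2-fold (limma adjusted p = 0.0124). MLXIP, the MondoA gene, showed 0.65 (limma adjusted p = 0.112), and MLXIPL was too low to be tested. TXNIP, a MondoA target that limits glucose uptake, was at 49.2, 24.9 and 74.4 FPKM in PEF5, PEF7 and PEF8 and at 4.88, 1.68 and 1.04 FPKM in piPSC5, piPSC7 and piPSC8. It fell by 3.86 on the log2 scale (limma adjusted p = 0.00163), while ARRDC4, its relative, showed -0.37 (limma adjusted p = 0.487).

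Other factors with the same kind of domain, which also bind E-boxes, had 1 of 8 tested called higher and 3 lower, against 20.2% and 16.7% of all tested genes, with a median of -0.68. Under both rescalings 4 were called lower, with medians of -0.94 and -1.01. TFAP4 rose by 2.17 (limma adjusted p = 0.00103). TFE3, a factor of lysosome genes, SREBF1, of lipid synthesis, and USF1, a general E-box factor, had log2 differences of -2.14, -1.71 and -1.41, with limma adjusted p-values of 0.00103, 0.00125 and 0.00617.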

How the data were processed

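The authors deposited FPKM values per gene for 18007 genes in 6 libraries, read from both ends over 150 bp after poly-A selection. The submitters' processing notes name Bowtie2 2.2.3, HISAT2 2.1.0, HTSeq 0.6.0 and Sscrofa11.1, without roles, and the strand setting is not given in the sources used here. The smallest whole length that made all FPKM values of a gene whole fragments was taken, and it was found for all 18007 genes (100%). The 90125 values above 0 then lay within 0.000102 fragments of a whole number. Another length, multiples aside, also did so for 103 genes, none of them among the 10. Of 13209 shared symbols, 99.8% lay at overlapping positions in RefSeq Sscrofa11.1, from which promoters and transcripts were read. Genes of the lists were matched by symbol (164), an identifier table (8) or position (6), and 12 had no row.

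limma 3.58.1 in R 4.3.3 (trend, not robust) was fitted to log2(FPKM + 1). The 12428 genes tested had a mean of 0.5 FPKM or more, tests were two-sided, and p-values were adjusted over all of them by Benjamini-Hochberg. The code of the fit was run on simulated data with 200 changed genes. That run had a fixed spread, so it checks the code and not the fit to these lines. An exact permutation test of 3 libraries against 3 cannot go below 0.1, and none was run. The pseudocount of 1 understates the change of low genes. Lines are paired by origin. Once group means were removed, correlations were 0.0921, 0.0946 and 0.08 between same-numbered libraries and -0.12 to 0.06 between others. The study's general statistics section names an unpaired test, and the fit followed it and was made without the line. The study's RNA-seq comparison was between matched lines, so the main fit leaves this pairing out. The fit with the line as block was therefore an alternative, and ratios within lines are given beside it. Transcripts were aligned to the genome with minimap2 2.31-r1302. Sums, shares and patterns were computed in Python 3.11.15.

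The 10 genes and the lists were chosen with earlier results of these data known. The text names the 10 genes, both MLX lists, the 3 largest called rises and falls of each other list, POU5F1, SOX2 and KLF4 (with the other pluripotency markers, chosen after their values were seen), and the 3 nearest patterns. Fibroblast, proliferation, epithelial, endothelial, keratinocyte and blood lists are given by counts. Alternatives were no trend, voom on fragments, quantile normalization, both rescalings, a filter at 1 FPKM or none, a pseudocount of 0.1, the replicate block and each library left out. Protein sequences were not used here. 1 promoter sequence is not reported here.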

Additional observations from a re-analysis of the deposited data

How the results depend on the processing

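MYCL, MXI1 and MGA were called, and MAX and MNT were not, under every alternative listed. MYC missed the threshold with voom alone (-5.16, limma adjusted p = 0.0663). MXD3 missed it at the equal sum (0.96, adjusted p = 0.0672) and fell under 2-fold at the median ratio, and with 1 library left out it ranged from 0.88 to 1.40. MXD1 kept a log2 difference of -0.93 with the replicate block and with no filter, at adjusted p-values of 0.0671 and 0.0652, and ranged from -1.10 to -0.70 with 1 library left out. MXD4 passed the p-value threshold at the median ratio (-0.74) and the equal sum (-0.80), and ranged from -0.63 to -0.36 with 1 library left out. The cause of these shifts was not tested. The replicate block changed no call of the 10 genes and gave 4485 calls over all genes, against 4575. Over all alternatives that count ran from 4053, without piPSC5, to 5233, with a pseudocount of 0.1. The corepressor list had 1 gene called lower at the equal sum against 0. Calls ran from 6 to 9 of the coactivators, 3 to 4 of the PRC1.6 partners, 7 to 10 of the turnover genes and 24 to 28 of the activated targets. None of the 9 tested genes changed sign, while the median of all genes and the balance of calls turned under the rescalings. Depth limits MYCN throughout and MYC and MYCL in piPSCs, where they had at most 31 fragments per library.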
